A study of Mus musculus with 28 samples.

Results

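The myosin light chains and actins of muscle are 10 genes among the 12732 of the deposited expression table, taken by gene symbol alone: *Myl1*, *Mylpf*, *Myl2* and *Myl3* (light chains), *Mylk2* (the light chain kinase of skeletal muscle), *Acta1*, *Actc1* and *Acta2* (muscle actins), and *Actb* and *Actg1* (the cytoplasmic actins of all cells). All 10 reached a mean value of 0.5 and entered the comparison. They were measured by sequencing of stranded total RNA of the tibialis anterior (TA), a shin muscle built mainly of fast-twitch fibers, in 14 wt and 14 *mfn1,2* mice of both sexes, with 1 library per mouse. By the methods, *mfn1,2* mice carried *Myl1*-Cre and were −/flox at both *Mfn1* and *Mfn2*. The wt mice were +/flox at both genes, with no Cre named, and the crosses also brought in a floxed mDendra reporter allele. The mitofusins *Mfn1* and *Mfn2* of the mitochondrial outer membrane were thus deleted by Cre in fast-twitch fibers, while other cells of the muscle kept 1 allele of each in *mfn1,2* and both in wt mice. Ages in the labels are 4, 6 and 8 weeks, with 4 mice of each genotype at each, and 10 weeks, with 2 of each. The columns of the table carry only the genotype and a running number, with no stated link to an age. Each value below is therefore over all ages, and the spread between replicates includes age.

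Each myosin heavy chain carries an essential and a regulatory light chain on its neck. In fast-twitch fibers the essential chain comes mainly from *Myl1* and the regulatory chain from *Mylpf*, and in slow-twitch fibers and the heart ventricle from *Myl3* and *Myl2*. Phosphorylation of the regulatory chain by *Mylk2*, which is switched on by calcium and calmodulin, raises the force of a twitch after repeated activity. *Acta1* builds the thin filament of adult skeletal muscle, *Actc1* that of the heart and of developing skeletal muscle, and *Acta2* is the actin of vascular smooth muscle. Muscle actin genes are classical targets of serum response factor, which binds a short sequence called the CArG box.

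Of the 10 genes, 8 had an entry in the RefSeq promoter table (GRCm38.p6; 9 windows, since *Myl2* has a pair), with no entry for *Mylk2* and *Actb*. The CArG box was searched in its strict form, CCWWWWWWGG with W for A or T. Within the 250 bases before the start, it stood in the windows of *Acta1*, *Actc1*, *Actg1* and *Myl3*. The windows of *Myl1*, *Mylpf*, *Myl2* and *Acta2* held no strict match. Forms with a C or G in the middle were not searched, so these windows can hold such forms. That of *Acta2* does, with ccctatatgg and ccttgtttgg in the 150 bases before the start. Across all 27025 genes of the table, 1.62% have a strict match in the same stretch. The 150 bases before the start are shown for the 4 genes with a match, 5′ to 3′ on the strand of the gene, with the CArG box in capitals, because these genes moved apart in the data: 3 of them fell by very different amounts and *Myl3* did not pass the test.
Acta1 (chr8:123894776-123894925, minus strand): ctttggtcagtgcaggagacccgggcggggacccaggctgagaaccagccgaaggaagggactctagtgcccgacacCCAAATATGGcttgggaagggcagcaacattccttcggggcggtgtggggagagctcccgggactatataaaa
Actc1 (chr2:114052876-114053025, minus strand): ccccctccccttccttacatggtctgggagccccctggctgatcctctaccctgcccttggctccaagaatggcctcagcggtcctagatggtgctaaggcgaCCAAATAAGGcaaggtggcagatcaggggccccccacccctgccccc
Actg1 (chr11:120348496-120348645, minus strand): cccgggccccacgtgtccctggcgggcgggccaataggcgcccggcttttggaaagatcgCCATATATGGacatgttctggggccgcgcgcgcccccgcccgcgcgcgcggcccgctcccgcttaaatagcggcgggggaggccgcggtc
Myl3 (chr9:110763528-110763677, plus strand): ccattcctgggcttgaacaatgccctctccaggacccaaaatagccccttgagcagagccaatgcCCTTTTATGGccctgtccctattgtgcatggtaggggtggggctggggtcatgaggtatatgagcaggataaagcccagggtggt
The CArG box ended 63 bases before the start in *Acta1*, 37 in *Actc1*, 80 in *Actg1* and 75 in *Myl3*. Other motifs were more common across genes. An E box (CANNTG, either strand) is present for 69.3% of all genes in the same stretch. For an MCAT element (CATTCC, either strand) the share is 14.4%, and for a TATA box (TATAAA, either strand) 14.3%. A MEF2 site, found for 3.42% of all genes, was in none of the members' windows. A match of letters is a description, and no match says nothing about the factor.

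Values were deposited as a normalized expression signal, which behaves as a level per transcript length, so levels of different genes can be set side by side. The sum of a library was 426029 to 564123 in wt and 326643 to 419290 in *mfn1,2*, and mitochondrially encoded genes made up 49.4% to 71.3% of it in wt and 24.9% to 35.5% in *mfn1,2* muscle. Libraries were therefore brought to a common scale by the median ratio over genes (median of ratios), and levels below are on that scale. Under other scalings the median log2 fold change of all genes moved from 0.026 to 0.64 in the values as deposited, 1.04 with libraries scaled to the same total, 0.16 to the same total without mitochondrially encoded genes and 0.83 when scaled to *Actb*. *Mfn1* was between 35.8 and 78.8 in wt and 8.15 and 18.6 in *mfn1,2* libraries. *Mfn2* was between 39.7 and 57.1 in wt and 24.1 and 42.9 in *mfn1,2* libraries, so its groups overlapped. Its log2 fold change of −0.66 (limma adjusted *P* = 4.59e-09) became −0.019 as deposited and 0.40 at the same total. In a clustering within each genotype 5 libraries stood apart (4 wt, 1 *mfn1,2*). In those 4 wt libraries the summed level of 8 fast-fiber markers was 16529 to 32442, against 35618 to 54027 in the other 10, and that of 6 fibroblast markers 312 to 1423, against 174 to 657. No call on the 10 members changed without these 5 libraries. In whole muscle, fewer cells of a type and less RNA per cell cannot be told apart.

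**Figure D1:**
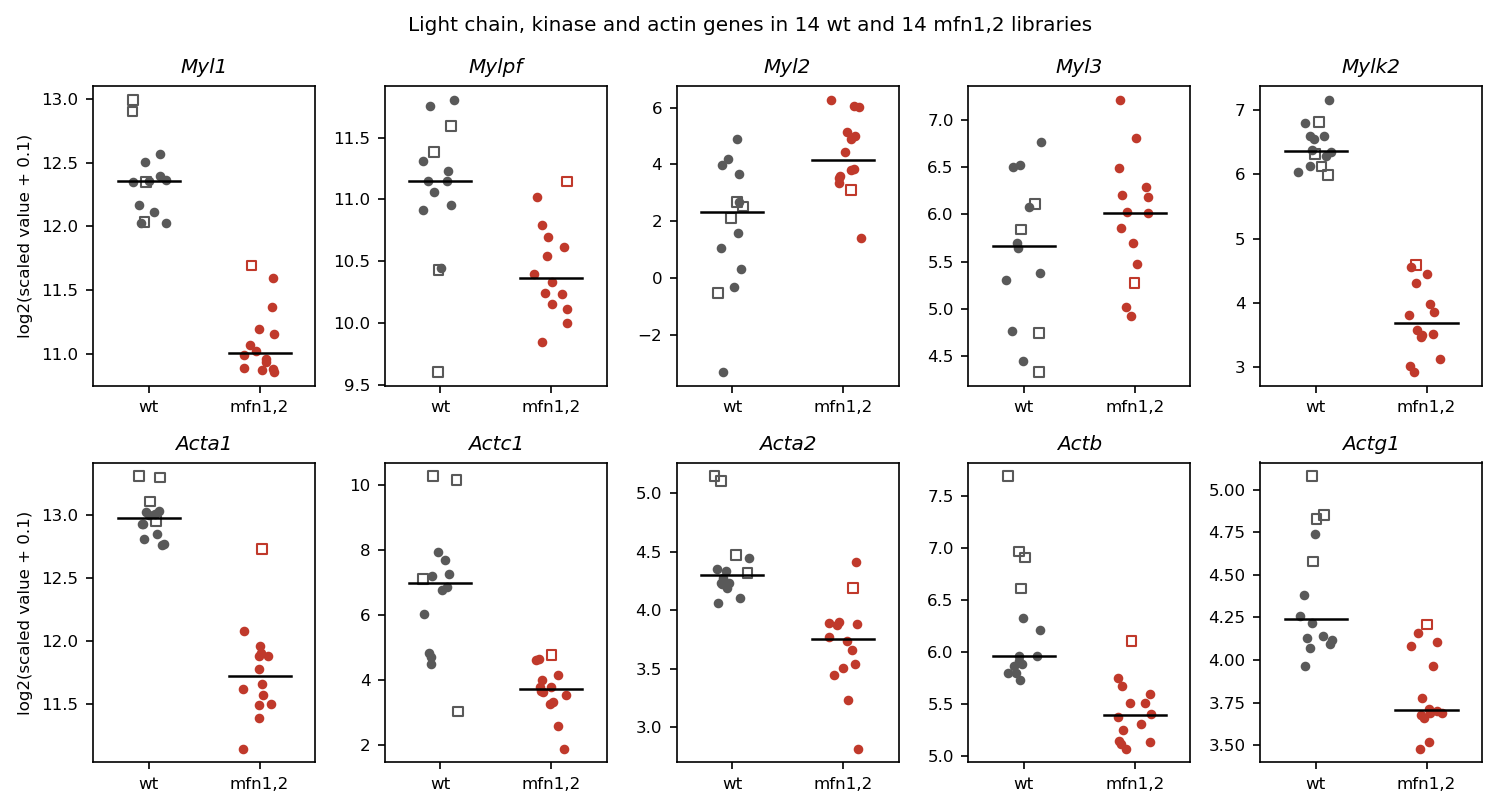
Scaled level of each of the 10 genes in every library on a log axis, wt beside *mfn1,2* (14 each), with a line at the group median and open squares for the 5 libraries that stand apart. *Myl1*, *Mylk2* and *Acta1* show no overlap between the genotypes, *Myl2* is the gene that was higher in *mfn1,2* muscle by the test, and *Actc1* in wt spreads from 8.08 to 1250.

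Relative to the other genes, 8 of the 10 members fell in *mfn1,2* muscle, *Myl2* rose and *Myl3* made no call (Benjamini-Hochberg adjusted *P* under 0.01, limma). Over all 10819 genes tested, 24.9% fell and 28.2% rose. The median log2 fold change of the members was −0.76, against 0.026 for all genes. By the stricter rule (Bonferroni *P* under 0.01 and more than 1 log2 unit of change), *Myl1*, *Mylk2* and *Acta1* were altered downward and 0 members upward, rules met by 5.12% and 6.02% of all genes. These 3 were also the members with every *mfn1,2* library below every wt library, which was the case for 5.08% of all genes. In the values as deposited 4 members fell and 2 rose (background 4.95% and 62.3%), and at the same total 2 were lower and 2 higher past the test (background 2.6% and 79.1%).

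**Figure D2:**
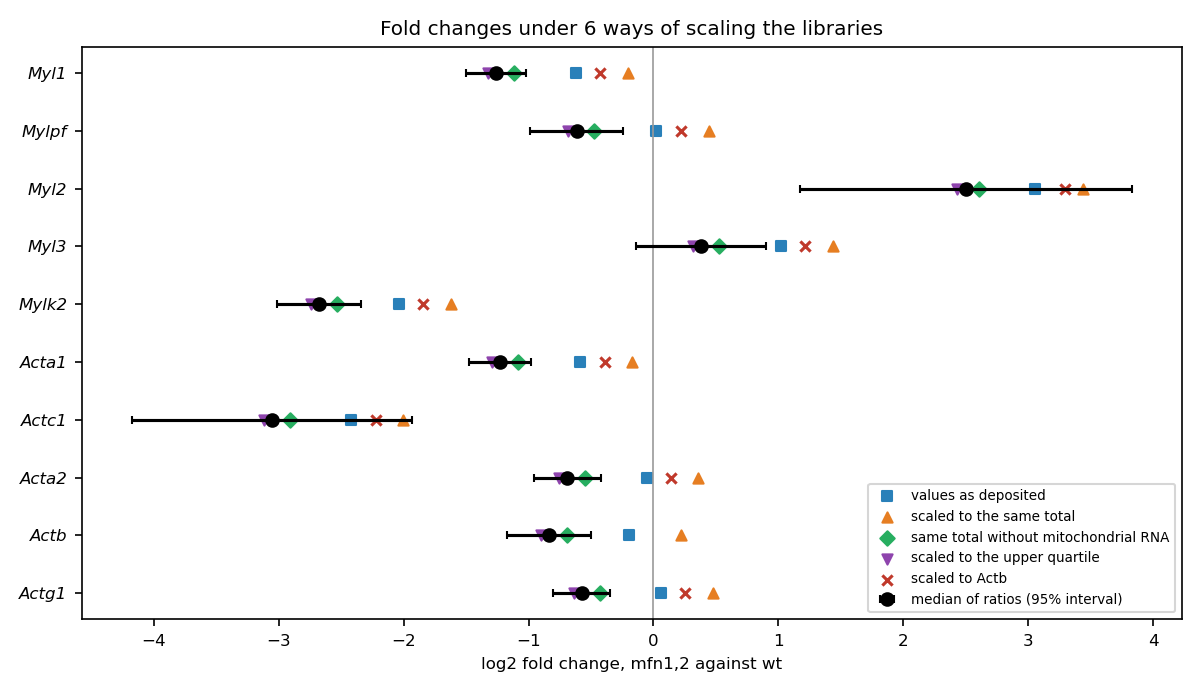
Log2 fold change (*mfn1,2* minus wt) of the 10 genes, with the 95% interval of the main scaling and points for the other scalings. *Mylk2*, *Actc1* and *Myl2* keep their direction and their call under every scaling tried, *Myl1* and *Acta1* stay below 0, and *Mylpf*, *Acta2*, *Actb* and *Actg1* lie on both sides of 0.

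The fast essential light chain *Myl1* was, next to *Acta1*, the highest of the 10 members in both genotypes. Its level was 4171, 5241 and 8173 (lowest, median and highest) in wt and 1851, 2058 and 3311 in *mfn1,2* libraries, so the highest *mfn1,2* library lay below the lowest wt one. The means were 5402 ± 1226 (SD, *n* = 14) and 2243 ± 463 (SD, *n* = 14), a log2 fold change of −1.26 (standard error, SE, 0.12, limma adjusted *P* = 1.06e-10). It was −0.21 and past no threshold (limma adjusted *P* = 0.273) when libraries were scaled to the same total, and −0.43 (adjusted *P* = 0.0361) when scaled to *Actb*. The Cre of *mfn1,2* mice is driven from *Myl1*, so for this gene the Cre allele and the loss of the mitofusins cannot be told apart. Cre was named only for *mfn1,2* mice, so for all other genes too its presence cannot be told apart from that loss. A pseudogene, *Mylf-ps*, shares 8.08% of the 75-base stretches of the *Myl1* transcripts.

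The fast regulatory light chain *Mylpf* moved less. Its level was 779, 2269 and 3580 in wt and 924, 1319 and 2265 in *mfn1,2* libraries. All 14 *mfn1,2* libraries were below the wt median and 0 of them below the lowest wt library, which was 1 of those that stand apart. The means were 2278 ± 787 (SD, *n* = 14) and 1436 ± 396 (SD, *n* = 14), a log2 fold change of −0.62 (SE 0.18, limma adjusted *P* = 0.00402) that became 0.024 as deposited, 0.44 at the same total and 0.22 on the *Actb* scale. The ratio of *Myl1* to *Mylpf* within a library, which no scaling touches, fell 1.57-fold (2-sided permutation test, *P* = 1e-04, adjusted *P* = 3e-04 over 9 ratios), from a mean log2 ratio of 1.31 ± 0.50 (SD) to 0.67 ± 0.26 (SD). The pair of fast chains thus did not change in step, with 14 of 14 *mfn1,2* libraries below the wt median of the ratio. The limit named for *Myl1* above, the Cre driven from that gene, holds for this ratio too.

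The slow chains were low in wt TA muscle. *Myl2*, the slow and ventricular regulatory chain, was 0, 4.92 and 29.7 in wt and 2.58, 17.9 and 77.6 in *mfn1,2* libraries, with 1 wt library listed at 0. The groups overlapped, with 13 of 14 *mfn1,2* libraries above the wt median and 6 above the highest wt library. The means were 7.53 ± 8.57 (SD, *n* = 14) and 28.5 ± 24.3 (SD, *n* = 14), and the log2 fold change was 2.50 on the scale of log2(value + 0.1) (SE 0.65, 95% interval 1.17 to 3.83, limma adjusted *P* = 0.00136). It kept its sign and its call under every scaling, from 2.43 scaled to the upper quartile to 3.44 at the same total. The spread was wide in both genotypes, with a coefficient of variation of 114% in wt and 85.1% in *mfn1,2* libraries.

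*Myl3*, the essential chain that pairs with *Myl2*, was 20.0, 50.8 and 108.5 in wt and 30.4, 64.6 and 148 in *mfn1,2* libraries. The groups overlapped over most of their range. Its means of 54.5 ± 28 (SD, *n* = 14) and 68.4 ± 32.2 (SD, *n* = 14) gave a log2 fold change of 0.38 (95% interval −0.14 to 0.90, limma adjusted *P* = 0.197). It passed upward in the values as deposited (1.02), at the same total (1.44) and scaled to *Actb* (1.21). *Pth1r*, on the opposite strand, overlaps *Myl3*, and the libraries were stranded, although the strand setting of the counting is not given in the sources used here.

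Within a library the balance moved toward the slow chains for both kinds of light chain. *Myl2* relative to *Mylpf* rose 8.68-fold (2-sided permutation test, *P* = 0.00016, adjusted *P* = 0.00036), with 13 of 14 *mfn1,2* libraries above the wt median. *Myl3* relative to *Myl1* rose 3.12-fold (*P* = 5e-05, adjusted *P* = 0.000225, permutation test), with 14 of 14 above the wt median and the limit named for *Myl1* above. Even so, *Myl2* was 1.5% of the summed level of *Myl2* and *Mylpf* in the median *mfn1,2* library and at most 6.48%, against 0.319% and at most 1.29% in wt. *Myl3* was 3.11% of *Myl3* and *Myl1* and at most 5.57%, against 1.06% and at most 2.38% in wt. The fast chains remained the main ones in every library of both genotypes. The 2 slow chains did not keep their ratio to each other either, since *Myl3* relative to *Myl2* fell 4.35-fold (permutation test, *P* = 0.00027, adjusted *P* = 0.000486). This log2 difference of −2.12 was −1.62 with 1 added, −2.40 with 0.01 added and −1.74 without the wt library with *Myl2* at 0.

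**Figure D3:**
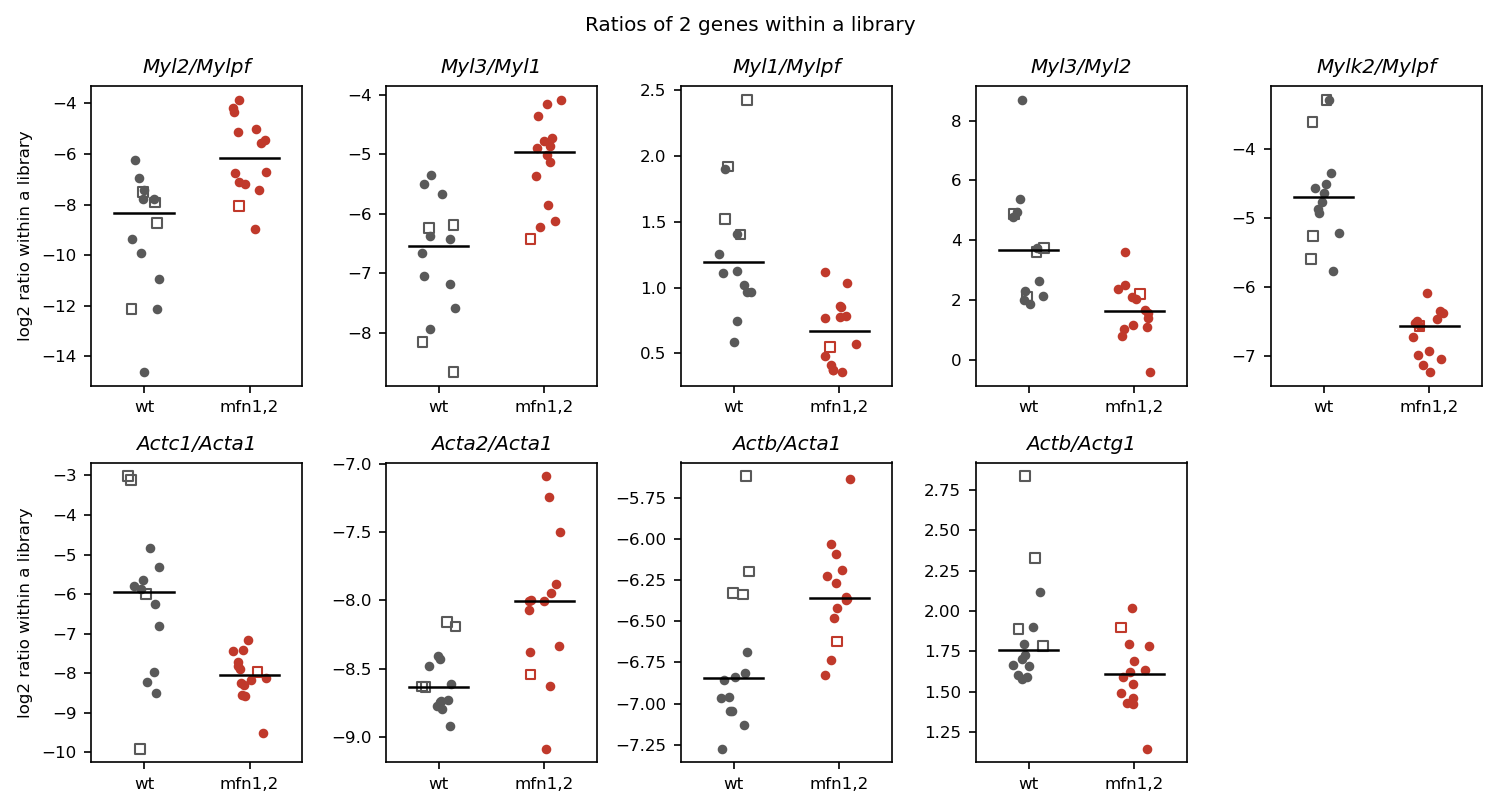
Log2 ratio between 2 members within each library, wt beside *mfn1,2* (14 each), with a line at the group median and open squares for the libraries that stand apart. *Mylk2* relative to *Mylpf* shows no overlap (wt −5.77 to −3.29, *mfn1,2* −7.23 to −6.09), and *Myl2* to *Mylpf* and *Myl3* to *Myl1* are higher in *mfn1,2* muscle.

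Other markers of slow-twitch fibers moved with *Myl2*. Of 8 slow markers, 6 rose and 0 fell (28.2% and 24.9% of all genes), with a median log2 fold change of 1.40. Their summed level was 46.6 to 206 in wt and 157 to 429 in *mfn1,2* libraries. Without the 5 libraries that stand apart 5 slow markers rose and 0 fell. As deposited 8 of them rose and 0 fell (62.3% and 4.95% of all genes). *Tnnt1* and *Tnnc1*, the slow troponins T and C, rose by 2.73 and 2.55 on the log2 scale. Of 8 fast markers, 5 fell and 1 rose (24.9% and 28.2% of all genes). The falls were led by *Actn3*, the α-actinin of fast fibers (−4.72), and the calcium buffer *Pvalb* (−3.96), while the fast myosin heavy chain *Myh1* rose (0.62). Without the 5 libraries that stand apart 7 fast markers fell and 0 rose, and *Myh1* no longer passed (0.25, limma adjusted *P* = 0.104). As deposited 3 of the fast markers fell and 3 rose (4.95% and 62.3% of all genes). The paper stained TA sections for myosin types, a measure of protein, and reported no notable change in fiber type. Whether the mix of fibers has a part in the light chain results was not tested.

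Across libraries *Myl2* varied together with slow-fiber genes. Over the 28 libraries, among 4809 genes whose mean reached 5, the genes most like it were *Tnnc1* (Pearson *r* = 0.81 of log2 values), the M-band gene *Myom3* (0.78) and the Z-disc gene *Myoz2* (0.76). Within a genotype the correlation of *Myl2* with *Myl3* was 0.58 in wt (Spearman 0.59) and 0.76 in *mfn1,2* libraries (Spearman 0.73), over 14 libraries each. These are descriptions over libraries that share tissue, preparation and scaling.

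The kinase that phosphorylates the regulatory chain showed the clearest separation among the members. *Mylk2* was 63.6, 82.2 and 143 in wt and 7.48, 12.9 and 23.9 in *mfn1,2* libraries, with no overlap. The mean of 88.9 ± 22.1 (SD, *n* = 14) in wt was 6.15 times that of 14.4 ± 5.63 (SD, *n* = 14) in *mfn1,2* muscle. The log2 fold change was −2.67 (SE 0.17, limma adjusted *P* = 1.12e-14) and stayed between −2.74 and −1.62 under all scalings, past the threshold each time. It also reached the smallest *P* that 100000 resamples can give (2-sided permutation test, *P* = 1e-05), as did *Myl1*, *Acta1* and *Acta2*. The kinase fell more than its substrate, with *Mylk2* relative to *Mylpf* lower 4.17-fold in the mean (permutation test, *P* = 1e-05, adjusted *P* = 9e-05).

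Within *mfn1,2* muscle, libraries with more *Mylpf* had more *Mylk2* (Pearson *r* = 0.80, Spearman 0.78, *n* = 14 libraries), whereas in wt the correlation was −0.38 (Spearman −0.47). The 3 genes most like *Mylk2* over the 28 libraries were *Pgm1*, an enzyme of glycogen breakdown, *Scn4b*, a sodium channel β subunit, and *Phkg1*, the catalytic subunit of muscle phosphorylase kinase, each with *r* = 0.98. Within wt these correlations were 0.51, 0.66 and 0.28, and within *mfn1,2* 0.91, 0.85 and 0.92.

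Of 9 other genes of light chain kinases, phosphatase and calmodulin, 5 fell and 1 rose (24.9% and 28.2% of all genes, median log2 fold change −0.54). As deposited 2 fell and 3 rose, and at the same total 1 fell and 5 rose. *Mylk4*, a kinase gene of the same family, fell from 834 ± 250 (range 415 to 1250) to 47.4 ± 22.2 (SD, *n* = 14, range 20.0 to 93.2), a log2 fold change of −4.21 (limma adjusted *P* = 3.06e-17) with no overlap and the same direction under every scaling. *Calm3*, a calmodulin gene, fell from 70.1 ± 11.7 to 28.8 ± 3.71 (log2 fold change −1.27, adjusted *P* = 2.34e-14), with no overlap, and did not pass at the same total (−0.22, adjusted *P* = 0.217) or scaled to *Actb* (−0.44, adjusted *P* = 0.0248). *Calm2*, which encodes the same protein and was named after its values were seen, fell (−0.54) but became 0.097 as deposited, 0.51 at the same total and 0.29 on the *Actb* scale. *Ppp1r12a*, the targeting subunit of the phosphatase that acts on myosin, rose from 22.4 ± 2.65 to 36.0 ± 4.12 (0.68, adjusted *P* = 3.55e-10) with every *mfn1,2* library above every wt library, which 6.15% of all genes showed. Its muscle relative *Ppp1r12b*, also named after its value was seen, was at 42.9 ± 7.51 and 41.4 ± 7.58 (adjusted *P* = 0.641).

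**Figure D4:**
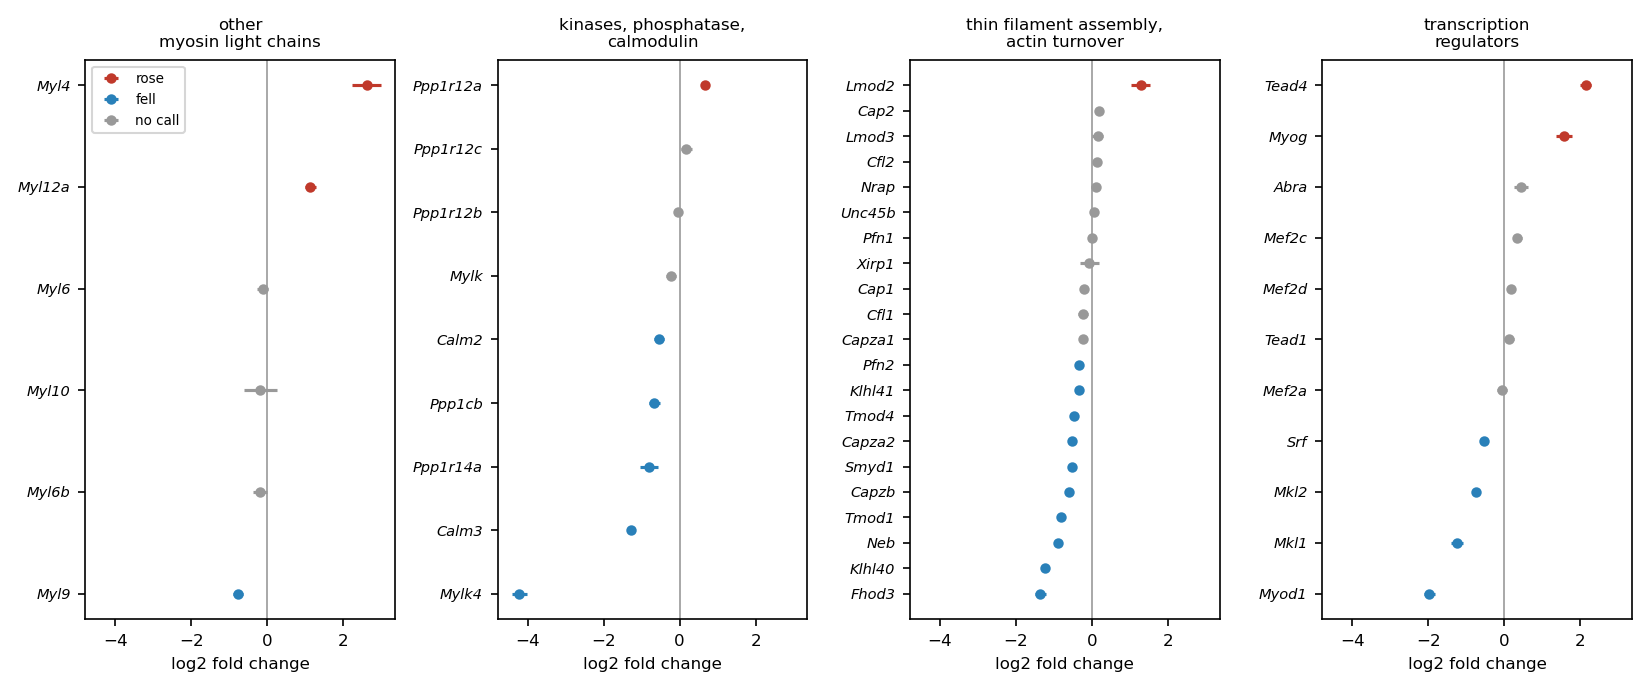
Log2 fold change (*mfn1,2* minus wt, main scaling) of genes of light chain phosphorylation, other light chains, thin filament assembly and transcription regulators, with bars for the standard error and colors for genes that rose, fell or made no call. *Mylk4* lies farthest down at −4.21 and *Myl4* farthest up at 2.61.

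Of 6 other light chain genes, 2 rose and 1 fell (28.2% and 24.9% of all genes), and the median log2 fold change was −0.15. As deposited 3 rose and 0 fell, and at the same total 4 rose and 0 fell. *Myl4*, the essential chain of the atrium and of embryonic muscle, rose from 1.39 ± 0.71 to 11.7 ± 9.66 (SD, *n* = 14), a log2 fold change of 2.61 (limma adjusted *P* = 5.89e-07). *Myl12a*, a regulatory chain of nonmuscle myosin, rose from 51.7 ± 14.7 to 111.3 ± 25.3 (1.13, adjusted *P* = 5.11e-08), and both were up under every scaling. *Myl9*, the regulatory chain of smooth muscle, fell from 14.7 ± 4.36 to 8.46 ± 1.80 (−0.77, adjusted *P* = 4.34e-06), which turned to 0.28 at the same total and 0.059 scaled to *Actb*. *Myl4* is also 1 of 7 markers of developing or regenerating fibers, of which 6 were tested, 5 rose and 0 fell (28.2% and 24.9% of all genes). Among these, *Chrna1*, a subunit of the acetylcholine receptor, rose by 2.68 and *Myh8*, the perinatal myosin heavy chain, by 7.77 (SE 1.04) on the log2 scale. *Myh8* was listed at 0 in 4 wt libraries, so the size of its fold change depends on the added 0.1. It was 0 to 252 in wt (mean 30.6 ± 71.1) and 208 to 495 in *mfn1,2* libraries (mean 302 ± 87.2, SD, *n* = 14), and the groups overlapped.

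*Acta1*, the main actin of skeletal muscle, was the highest of the 10 members in wt. It was 6947, 8032 and 10117 in wt and 2260, 3368 and 6783 in *mfn1,2* libraries. The groups did not overlap, and the highest *mfn1,2* library, the 1 that stands apart, was well above the next (4319). The means were 8134 ± 992 (SD, *n* = 14) and 3574 ± 1083 (SD, *n* = 14), a log2 fold change of −1.23 (SE 0.12, limma adjusted *P* = 4.61e-10). Scaled to the same total it was −0.17 (adjusted *P* = 0.378) and scaled to *Actb* −0.39 (adjusted *P* = 0.0602), neither past the threshold. The coefficient of variation was 12.2% in wt, the lowest of the 10 members there, and 30.3% in *mfn1,2* muscle.

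Together *Acta1*, *Myl1* and *Mylpf* took 5.15%, 6.24% and 10.0% (lowest, median, highest) of the summed signal of all genes other than the mitochondrially encoded ones in wt, and 2.34%, 3.25% and 6.10% in *mfn1,2* libraries. Of the whole sum, mitochondrially encoded genes included, they took 2.30% in the median wt and 2.34% in the median *mfn1,2* library. The drop of these 3 genes was therefore seen against the other nuclear genes and not against the whole signal.

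*Actc1*, the cardiac actin that skeletal muscle also makes during development, had the highest coefficient of variation of the members in wt (154%, against 114% for *Myl2*). It was 8.08, 128 and 1250 in wt and 3.58, 13.1 and 27.1 in *mfn1,2* libraries, a 155-fold range in wt and a 7.56-fold range in *mfn1,2*. The highest wt libraries were at 1159 and 1250 and the lowest at 8.08, and these 3 are among the 4 wt libraries that stand apart. All 14 *mfn1,2* libraries were below the wt median, but only 2 were below the lowest wt library. The means were 263 ± 406 (SD, *n* = 14) and 14.5 ± 7.01 (SD, *n* = 14), and the wt median was 9.75 times that of *mfn1,2*. The log2 fold change was −3.06 (SE 0.55, 95% interval −4.18 to −1.94, limma adjusted *P* = 1.75e-05), the largest of the members, with a Bonferroni-adjusted *P* of 0.0505 that left it outside the stricter rule.

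The difference in *Actc1* kept its direction and its call under all scalings (−3.12 to −2.00) and without the 5 libraries that stand apart (−2.78, limma adjusted *P* = 1.3e-06). Relative to *Acta1* within a library it fell 3.55-fold (2-sided permutation test, *P* = 0.00212, adjusted *P* = 0.00273). Its share of the summed level of the 5 actins was 0.10%, 1.58% and 10.7% in wt and 0.13%, 0.37% and 0.68% in *mfn1,2* libraries. The genes most like *Actc1* over the 28 libraries were the sarcomere gene *Obsl1* (*r* = 0.88), *B230312C02Rik* (0.87) and the zinc transporter *Slc39a1* (0.84), with correlations of 0.81, 0.87 and 0.91 within wt and of 0.63, 0.06 and 0.17 within *mfn1,2*. The correlation of *Actc1* with *Myl2*, another gene of the heart, was 0.10 over the 14 wt libraries (Spearman 0.12), 0.43 over the 10 wt libraries that do not stand apart (Spearman 0.33) and 0.40 over the 14 *mfn1,2* libraries (Spearman 0.24). In developing muscle *Actc1* and *Myl4* are made together, and here *Actc1* fell and *Myl4* rose.

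*Acta2*, the actin of vascular smooth muscle, was 16.6, 19.5 and 35.3 in wt and 6.94, 13.4 and 21.1 in *mfn1,2* libraries, with 12 of 14 *mfn1,2* libraries below the lowest wt one. The means were 21.5 ± 5.83 (SD, *n* = 14) and 13.4 ± 3.53 (SD, *n* = 14), a log2 fold change of −0.69 (SE 0.13, limma adjusted *P* = 4.14e-05) that was −0.055 in the values as deposited, 0.36 at the same total and 0.14 scaled to *Actb*. Relative to *Acta1* it rose 1.45-fold within a library (permutation test, *P* = 0.00153, adjusted *P* = 0.0023). Of 8 smooth muscle markers, *Acta2* included, 3 fell and 0 rose (as deposited, 0 fell and 2 rose), and their summed level was 67.7 to 115 in wt and 51.1 to 109 in *mfn1,2* libraries. All 6 endothelial markers fell, against 0 in the values as deposited, with a summed level of 46.9 to 89.4 in wt and 30.2 to 47.0 in *mfn1,2*. Over all genes, 24.9% fell and 28.2% rose, against 4.95% and 62.3% as deposited. The part of vessels in the *Acta2* result was not tested.

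Both cytoplasmic actins fell on the main scaling, a direction that turned for each under others as given below. *Actb* was 53.0, 62.3 and 206 in wt and 33.5, 42.0 and 68.7 in *mfn1,2* libraries, with 12 of 14 *mfn1,2* libraries below the lowest wt one. The 4 wt libraries that stand apart held its 4 highest values, 97.6 to 206, against 53.0 to 80.4 in the other 10, and the highest *mfn1,2* value also came from the library that stands apart. The means were 83.5 ± 42.6 (SD, *n* = 14) and 43.7 ± 9.62 (SD, *n* = 14). The log2 fold change was −0.83 (SE 0.17, limma adjusted *P* = 6.75e-05), −0.57 without those 5 libraries, −0.20 and past no threshold in the values as deposited (adjusted *P* = 0.448), and 0.22 at the same total. The summed fibroblast markers of those wt libraries are given above, and their part in the level of *Actb* was not tested. Of the marker lists of other cells, 2 of 6 fibroblast and 4 of 5 macrophage genes fell (24.9% of all genes). As deposited 0 of each fell and 1 fibroblast gene rose (4.95% and 62.3% of all genes). On the main scaling 0 of 5 red blood cell genes passed, and the 1 satellite cell gene tested rose (28.2% of all genes). Another satellite cell gene, *Pax7*, did not reach a mean of 0.5 and was not tested. It was lower in *mfn1,2* libraries (0.20 ± 0.11, SD, *n* = 14) than in wt (0.41 ± 0.14).

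*Actg1* was 15.5, 18.8 and 33.7 in wt and 11, 13 and 18.4 in *mfn1,2* libraries, with 10 of 14 *mfn1,2* libraries below the lowest wt one. The means were 21.5 ± 5.72 (SD, *n* = 14) and 14.2 ± 2.45 (SD, *n* = 14), and the log2 fold change of −0.57 (SE 0.11, limma adjusted *P* = 5.37e-05) became 0.061 as deposited, 0.48 at the same total and 0.26 on the *Actb* scale. Its level is uncertain, since 33.5% of the 75-base stretches of its transcripts recur in 10 other genes, foremost the pseudogene *Gm12715*, and how the counting treated such reads is not given in the sources used here. *Actb* and *Actg1* varied together, with a Pearson *r* of 0.83 in wt (Spearman 0.80) and 0.67 in *mfn1,2* libraries (Spearman 0.61). Over the 10 wt libraries that do not stand apart it was 0.67 (Spearman 0.50). The fall of *Actb* relative to *Actg1* (log2 ratio 1.87 ± 0.35 and 1.61 ± 0.22, SD, *n* = 14 each) did not pass at 0.01 (permutation test, *P* = 0.0189, adjusted *P* = 0.0189).

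Among the actins, *Acta1* made up 86.9%, 97.1% and 98.7% of the summed level in wt and 96.8%, 97.7% and 98.2% in *mfn1,2* libraries. The low wt end is where *Actc1* is high. *Actb* and *Actg1* together were 1.07% in the median wt and 1.62% in the median *mfn1,2* library. *Actb* relative to *Acta1* was higher 1.31-fold in *mfn1,2* muscle, which did not pass at 0.01 (permutation test, *P* = 0.0125, adjusted *P* = 0.0141) and did so without the 5 libraries that stand apart (log2 difference 0.66, adjusted *P* = 9e-05).

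**Figure D5:**
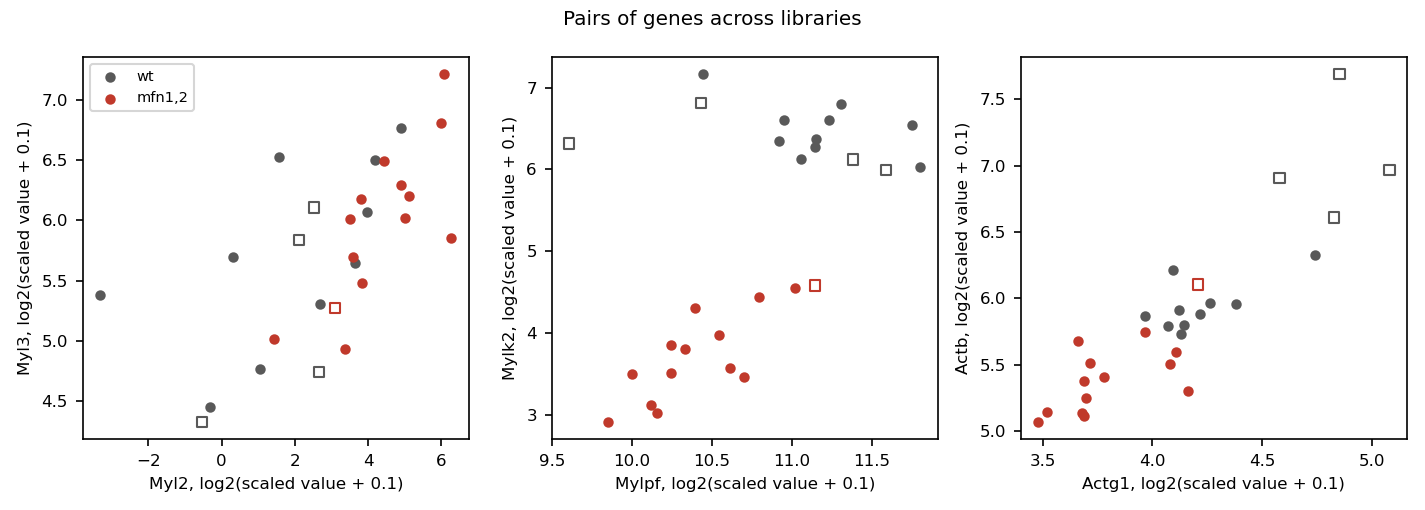
Levels of 2 members against each other in each library on log axes, wt and *mfn1,2* in different colors and open squares for the libraries that stand apart. *Myl2* and *Myl3* rise together in both genotypes, *Mylk2* and *Mylpf* do so in *mfn1,2* libraries (*r* = 0.80) but not in wt (−0.38), and *Actb* and *Actg1* follow each other, with the wt libraries that stand apart at the upper end.

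Of 21 genes that build and turn over the thin filament, 10 fell and 1 rose (24.9% and 28.2% of all genes, median log2 fold change −0.24). As deposited 3 fell and 9 rose, and at the same total 0 fell and 17 rose. *Lmod2*, a leiomodin that nucleates actin filaments, rose from 143.5 ± 75.1 to 311.2 ± 85.6 (SD, *n* = 14), a log2 fold change of 1.28 (limma adjusted *P* = 4.31e-05) that was positive under every scaling. *Fhod3*, a formin of the sarcomere, fell from 14.1 ± 2.20 to 5.71 ± 2.30 (−1.36, adjusted *P* = 9.58e-10). *Klhl40*, a kelch protein that stabilises thin filament proteins, fell from 17.9 ± 4.25 to 7.46 ± 1.40 (−1.25, adjusted *P* = 1.69e-11). Neither passed at the same total (*Fhod3* −0.31, adjusted *P* = 0.118, and *Klhl40* −0.20, adjusted *P* = 0.297) or scaled to *Actb* (adjusted *P* = 0.018 and 0.0328).

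Of 11 regulators of transcription tested, 4 fell and 2 rose, shares close to those of all genes (24.9% and 28.2%). As deposited 2 fell and 7 rose (4.95% and 62.3% of all genes), and at the same total 1 fell and 8 rose (2.6% and 79.1%). *Tead4*, which binds the MCAT element, rose from 0.89 ± 0.33 to 4.13 ± 0.95 (SD, *n* = 14), a log2 fold change of 2.14 (limma adjusted *P* = 1.43e-13). The myogenic factor *Myog* rose from 1.51 ± 0.92 to 4.27 ± 1.28 (1.57, adjusted *P* = 3.47e-07), whereas *Myod1*, of the same family, fell from 4.87 ± 1.40 to 1.15 ± 0.32 (−1.97, adjusted *P* = 6.78e-13). *Mkl1*, a coactivator of serum response factor that responds to free actin, fell from 4.97 ± 0.85 to 2.15 ± 0.87 (−1.24, adjusted *P* = 3.34e-08). *Tead4*, *Myog* and *Myod1* kept their direction and their call under every scaling, while *Mkl1* did not pass at the same total (−0.22, adjusted *P* = 0.346) or scaled to *Actb* (−0.44, adjusted *P* = 0.028). *Srf*, serum response factor itself, and the second coactivator *Mkl2*, both named after their values were seen, fell by 0.54 and by 0.75 on the log2 scale. *Srf* became 0.093 as deposited, 0.51 at the same total and 0.29 on the *Actb* scale, and *Mkl2* to 0.29 at the same total and 0.073 scaled to *Actb*. Among the 4 genes with a strict CArG box printed above, the log2 fold changes were −3.06 (*Actc1*), −1.23 (*Acta1*), −0.57 (*Actg1*, with the flips given above) and 0.38 (*Myl3*, not past the test).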

How the data were processed

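Libraries were made by the authors from stranded total RNA and sequenced as single reads of 75 bases. Build mm9 and the tools DESeq2, featureCounts, HISAT2 and Trim Galore, no version stated, are credited to the submitters' processing notes. What was deposited is 1 normalized signal value for each gene in each library. The lowest values fall with transcript length (log-log slope −1.07 over 262 genes), as in a value per length. Which unit it is and the depth are not given in the sources used here, so no count test was run. Precision rests on 14 mice per genotype.

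Median-of-ratios factors were taken from 11693 genes above 0 in all 28 libraries. Genotypes were compared with limma 3.58.1 (R 4.3.3, trended variance) on log2(value + 0.1). Of 12732 genes, the 10819 that reached a mean of 0.5 were tested, with Benjamini-Hochberg and Bonferroni adjustment over all of them. Rose and fell mean an adjusted *P* under 0.01. Fold changes on this scale understate those of low genes, and where libraries are at 0 they depend on the added 0.1. Ratios were compared with 2-sided permutation tests (100000 resamples), adjusted over 9. The steps were tested on simulated data. Transcripts were checked for shared stretches in GENCODE M21, and motifs in RefSeq promoters (GRCm38.p6) on both strands. Alternatives included scaling in 5 other ways, a pseudocount of 1 or of 0.01, no filter, a minimum mean of 5, robust variance, and leaving out libraries. Python 3.11.15, numpy 2.4.6, scipy 1.17.1, pandas 2.3.3 and matplotlib 3.10.9 were used. The members, gene lists and ratios were chosen with earlier results of these data known. The genes named are the 10 members, at most 2 rises and 2 falls per list (a gene of 2 lists counts under both) with *Mylk4*, and the 3 genes most like *Actc1*, *Myl2* and *Mylk2*. *Calm2*, *Ppp1r12b*, *Srf*, *Mkl2* and *Pax7* were named outside this rule, after their values were seen. *Actg2* and *Actbl2* were not analysed here, and 1 gene was left out of the lists and of their counts.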

Additional observations from a re-analysis of the deposited data

How the results depend on the processing

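The calls on all 10 members held under scaling to the upper quartile, both other pseudocounts, no filter, a minimum mean of 5, robust variance, without the 5 libraries that stand apart, and in each of the 28 fits that left out 1 library. *Mylk2*, *Actc1* and *Myl2* also held under every other scaling. In the values as deposited *Mylpf* (0.024) and *Actg1* (0.061) turned, *Acta2* (−0.055) and *Actb* (−0.20) no longer passed, and *Myl3* (1.02) passed, with the same outcome by permutation test. At the same total *Mylpf* (0.44), *Acta2* (0.36), *Actb* (0.22) and *Actg1* (0.48) turned, *Myl1* (−0.21) and *Acta1* (−0.17) no longer passed, and *Myl3* (1.44) passed. Scaled to *Actb*, *Mylpf* (0.22), *Acta2* (0.14) and *Actg1* (0.26) turned, *Myl1* (−0.43) and *Acta1* (−0.39) no longer passed, and *Myl3* (1.21) passed. Without mitochondrially encoded genes in the total, *Mylpf* (−0.47) and *Actg1* (−0.43) just missed the threshold. The cause was not tested, beyond the shift of all genes given in the report. The ratio of *Actb* to *Acta1* passed without the libraries that stand apart (0.66) and without wt 9, wt 13 or *mfn1,2* 2, with a range of 0.34 to 0.48 over the fits without 1 library, and that of *Actb* to *Actg1* without *mfn1,2* 4 (range −0.29 to −0.19). Over all genes, the numbers that rose, fell, and were altered up and down (3055, 2696, 651 and 554) became 6770, 538, 2500 and 201 in the deposited values, 8649, 284, 5107 and 110 at the same total, 7152, 368, 2472 and 151 scaled to *Actb*, and 1719, 1155, 369 and 248 at a minimum mean of 5, where fewer genes are tested. With a pseudocount of 1, 358 were altered downward. No paired analysis was possible because no source used here ties the running numbers of the columns to the labelled mice. Depth is unknown, so what it limits cannot be said, and ages could not be compared.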
